A study of Mus musculus with 7 samples.

Results

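Vesicle RNA of Dis3l2-depleted RAW264.7 macrophages was compared between cells given back a Dis3l2 transgene and cells given an empty vector. RAW264.7 is an established mouse macrophage line. The first library, Dis3l2r, came from extracellular vesicles (EVs) of cells with a hairpin against Dis3l2 (shDis3l2) that also expressed a Dis3l2 transgene resistant to the hairpin. Its partner, Vector, came from EVs of shDis3l2 cells with the empty vector. The pair makes up 2 of the 7 libraries in the series and 2 of its 5 EV libraries. The other EV libraries were D389N (shDis3l2 cells with a Dis3l2 transgene described as catalytically inactive), shDis3l2 alone, and shNS, which carried a hairpin that silences nothing. All cells were given doxycycline, at 1 µg/mL for 3 days before the medium was changed, and EVs were collected from the medium over the next 24 h. EVs were purified by density in sucrose, and micrococcal nuclease was added to digest RNA outside them. Each library was made from 50 ng of RNA with a reverse transcriptase that switches templates. The sources used here give neither the promoter of the transgene nor whether a line was 1 clone.

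Dis3l2 is an exoribonuclease that degrades RNA from the 3' end, with a preference for RNA to which a tail of uridines has been added, and it takes part in the surveillance of structured noncoding RNA. tRNAs carry amino acids to the ribosome, and a few tRNA genes hold an intron that an endonuclease cuts out and a ligase then seals. EVs are membrane particles that cells shed with small structured RNAs inside, tRNAs among them.

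The table held 3894 rows for whole RNAs, of which 224 stood for tRNA genes (51 families by anticodon), 15 for spliced tRNAs, 15 for short interspersed elements (SINEs), 1 for 4.5S RNA and 3639 for Ensembl transcripts. Of these rows, 537 had at least 20 counts over the Dis3l2r and Vector libraries and 393 had at least 100. Exon, intron and UTR pieces of transcripts stood in separate rows and were read as separate sets. Dis3l2r was the shallowest of the 5 EV libraries with 13439403 counts on whole RNAs, and Vector was the deepest with 25177105. The transcript IDs are not paired with gene names, so neither the return of Dis3l2 nor the macrophage markers could be checked, and transcripts are described as a class.

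Levels are given as scaled CPM, the usual depth-corrected count, here after scaling the 5 EV libraries by TMM (trimmed mean of M values). Each side of the comparison had 1 library, so no test of the difference was possible. A log2 ratio of Dis3l2r over Vector is followed by its exact binomial 95% interval, which covers counting error only. An RNA is said to pass the rule of size where both libraries together held 100 counts or more, the levels differed by 2-fold or more and the interval left out 0. Scaled counts are relative: more of one kind of RNA cannot be told apart from less of the others, nor fewer vesicles with an RNA from less of it per vesicle.

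In Dis3l2r EVs the named tRNAs were mostly lower than in Vector EVs and the Ensembl transcripts mostly higher. Of the 393 measured RNAs, 92 (23.4%) were higher in Dis3l2r EVs by the rule of size and 39 (9.92%) were lower. The higher RNAs were 89 transcripts, 2 SINE rows and 1 tRNA gene. Both SINE rows repeat the counts of transcripts that are among the 89, so these are counted again. The lower RNAs were 32 tRNA genes, 3 spliced tRNAs and 4 transcripts. The median log2 ratio was -0.52 over the 190 tRNA rows with at least 20 counts and 0.82 over the 323 such transcripts, against 0.05 over all 537 rows. Named tRNAs, spliced forms included, held 70.2% of whole-RNA counts in the Dis3l2r library and 76.9% in the Vector library. Transcripts held 24.5% in Dis3l2r and 16.6% in Vector. Named tRNAs held 70.96% in shDis3l2, 74.78% in D389N and 75.04% in shNS, and transcripts 22.2%, 16.67% and 20.02%. In named tRNAs Dis3l2r was thus close to shDis3l2, which has no transgene. In transcripts Vector was close to D389N, which has the inactive one. Without the most abundant transcript, named tRNAs held 76.5% in Dis3l2r and 78.5% in Vector, and transcripts 17.7% and 14.9%.

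**Figure D1:**
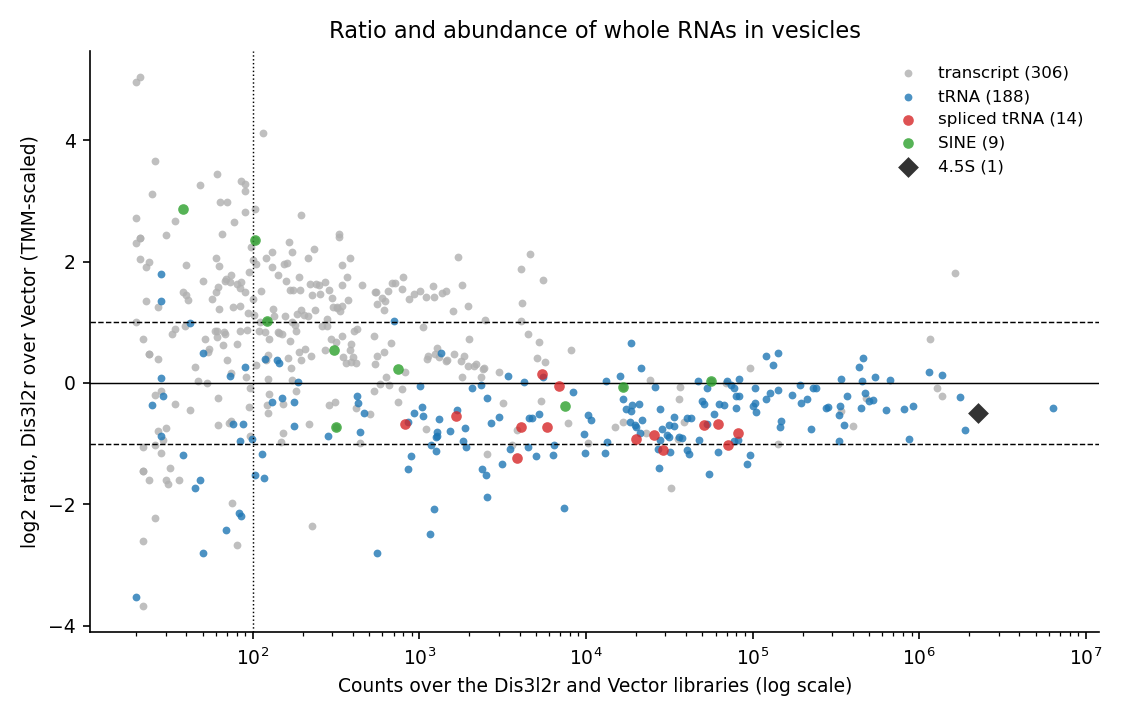
Log2 ratio of Dis3l2r over Vector EVs (vertical axis) against the counts of each RNA over both libraries (horizontal axis, log scale), for whole RNAs with at least 20 counts. Dashed lines mark 2-fold, the dotted line marks 100 counts, and 17 transcripts and 2 tRNA rows at 0 in one library are left out. Most tRNA points lie below 0, and most transcript points above 0 stand toward the left, at low counts.

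Among single tRNA genes, 156 of the 190 with at least 20 counts lay below a log2 ratio of 0 and 34 above it. Of the 166 with at least 100 counts, 32 were lower by the rule of size and 1 was higher. The count of lower genes depended on the scaling: it was 18 with whole-RNA totals, 14 with named tRNA totals or without the most abundant transcript, 57 with UTR totals and 119 with exon totals. The largest decrease belonged to tRNA-His-GTG-3-1, a histidine tRNA, with 2.97 scaled CPM in Dis3l2r EVs and 20.6 in Vector EVs (log2 ratio -2.79, interval -3.27 to -2.35). D389N EVs held 6.60 scaled CPM of it, shDis3l2 EVs 9.01 and shNS EVs 13.8, so Dis3l2r stood below and Vector above the other 3 libraries. The next in order were tRNA-Thr-AGT-7-1 at -2.49, tRNA-Ser-GGA-1-1 at -2.08, tRNA-Ala-AGC-8-1 at -2.06 and tRNA-Val-AAC-1-1 at -1.89. For tRNA-Thr-AGT-7-1 the Dis3l2r level of 7.47 scaled CPM was close to the 7.06 of D389N EVs and above the 1.29 of shNS EVs, while Vector EVs held 42.1 and shDis3l2 EVs 41.0.

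The tRNA gene that was higher by the rule of size, tRNA-His-GTG-1-1, had 25.8 scaled CPM in Dis3l2r EVs and 12.8 in Vector EVs (log2 ratio 1.01, interval 0.80 to 1.23). It was under 2-fold with DESeq2 size factors (0.92) and with intron, UTR and exon totals (0.85, 0.74 and 0.25). It shares its anticodon with the histidine gene that had the largest decrease. Genes for one tRNA can be almost identical and share reads that estimation divides among them, so the value of a single gene is less certain than that of its family. Summed over its 3 genes, histidine tRNA reached 13963 scaled CPM in Dis3l2r EVs and 26416 in Vector EVs, a log2 ratio of -0.92.

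By amino acid, the counts are read against the 32 of 166 tRNA genes (19.3%) that were lower in all, and no difference between amino acids was tested. Valine tRNAs, read out by 13 rows, were lower by the rule of size for 6 of 10 measured genes, and their summed level was 2640 scaled CPM in Dis3l2r EVs against 5468 in Vector EVs (log2 ratio -1.05). Serine tRNAs were lower for 6 of 13 measured genes, arginine tRNAs for 5 of 18, threonine tRNAs for 3 of 14, isoleucine tRNAs for 2 of 6, elongator methionine tRNAs for 2 of 5 and asparagine tRNAs for 1 of 2. Alanine, glutamine, histidine, lysine, phenylalanine, tryptophan and tyrosine tRNAs had 1 lower gene each, of 3 to 19 measured. Summed lysine tRNAs had a log2 ratio of -0.72, phenylalanine tRNAs -0.94, tryptophan tRNAs -0.89 and elongator methionine tRNAs -0.84. Initiator methionine tRNA, which starts protein synthesis, was at -0.23. In the same sums, glutamate tRNAs at 0.20, cysteine tRNAs at 0.32 and the selenocysteine tRNA at 0.26 stood above 0. Of the cysteine genes with at least 20 counts, 7 lay above 0 and 7 below, and of the glutamate genes 3 and 2.

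With the genes of an anticodon summed, 49 of the 51 families had at least 100 counts, 39 of them lay below 0 and 10 above. By the rule of size 6 families (12.2%) were lower and none was higher, and the number lower was 2 with whole-RNA totals, 11 with DESeq2 size factors and 34 with exon totals. The serine family Ser-GGA, of 1 measured gene, had 10.2 scaled CPM in Dis3l2r EVs and 43.1 in Vector EVs (log2 ratio -2.08). The arginine family Arg-TCG had 2726 scaled CPM in Dis3l2r EVs, 2986 in D389N EVs, 6649 in Vector EVs, 5139 in shDis3l2 EVs and 5911 in shNS EVs (Dis3l2r over Vector -1.29, interval -1.30 to -1.27). Arg-TCG in both libraries with a Dis3l2 transgene, active or not, was thus below the 3 without one. In the valine family Val-CAC these libraries were again the lowest, with 984 scaled CPM in Dis3l2r EVs, 1060 in D389N EVs, 2134 in Vector EVs, 2288 in shDis3l2 EVs and 3156 in shNS EVs. The other 3 were Ser-AGA at -1.18, Val-AAC at -1.17 and the isoleucine family Ile-TAT at -1.09.

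The families with the highest ratios were Cys-GCA at 0.32 (interval 0.32 to 0.33), Glu-TTC at 0.31 and the selenocysteine family SeC-TCA at 0.26. Cys-GCA had 17241 scaled CPM in Dis3l2r EVs and 13768 in Vector EVs, but 30561 in D389N EVs. These differences stayed under 2-fold. The direction of a small ratio depends on the scaling, which moved every ratio by between -0.77 and 0.32 on the log2 scale across the alternatives tried.

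**Figure D2:**
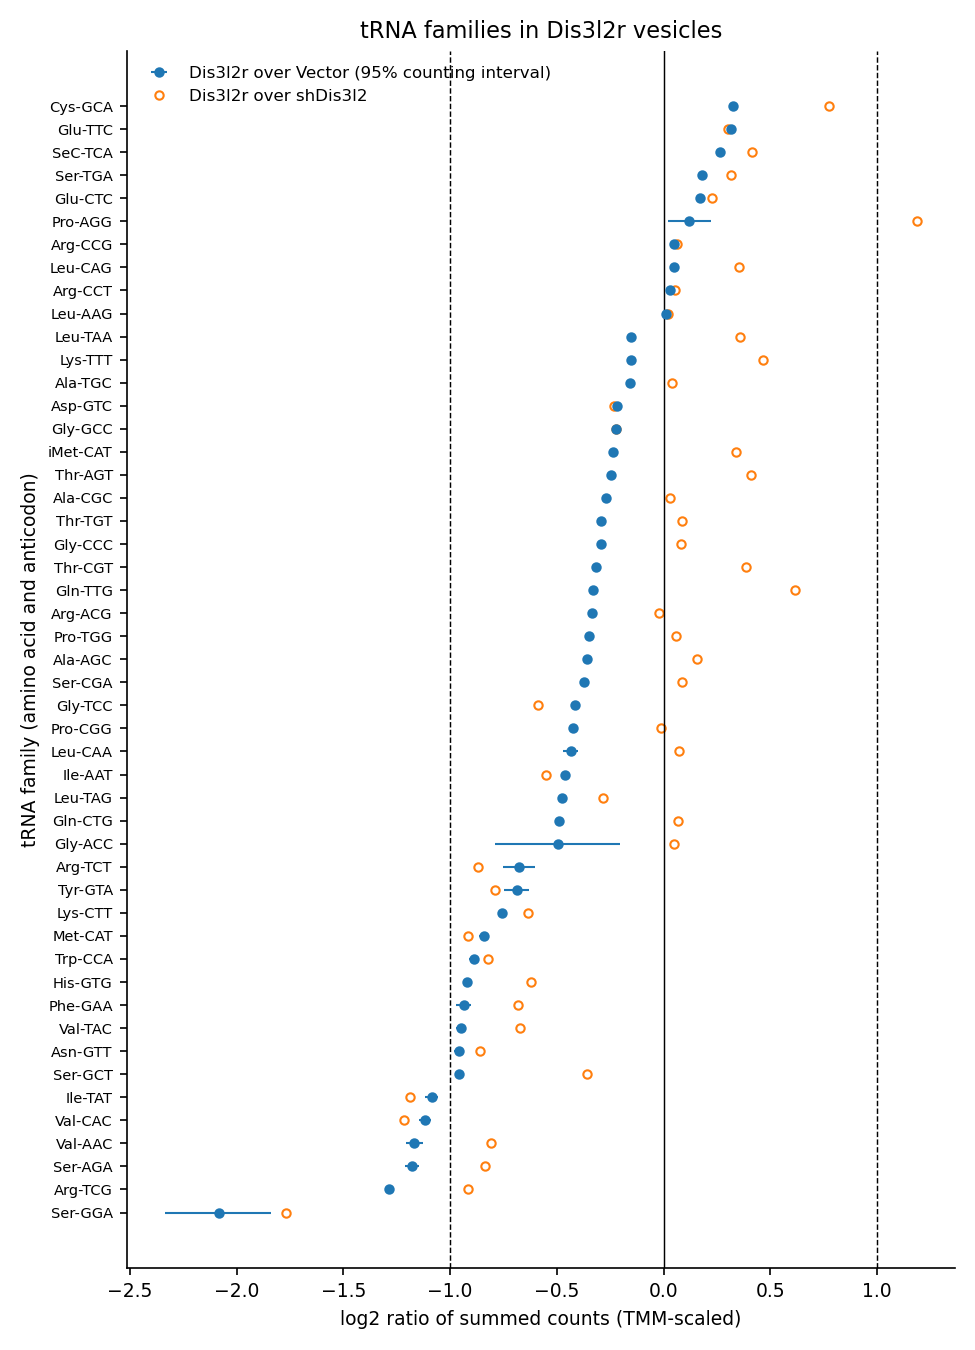
Log2 ratio of summed counts in Dis3l2r EVs over Vector EVs (filled, with 95% counting intervals) and over shDis3l2 EVs (open) for the 49 tRNA families with at least 100 counts, sorted by the first. Dashed lines mark 2-fold, which 6 families pass downward against Vector and 3 against shDis3l2, and the open points of many other families lie at or above 0.

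Families whose genes hold an intron were followed as spliced and unspliced rows, since spliced and precursor forms share exon reads that estimation divides between them. Spliced rows were lower in Dis3l2r EVs for 13 of 14 tRNAs with at least 20 counts, with a median log2 ratio of -0.73. Unspliced rows of the same 4 families were lower for 20 of 22, with a median of -0.76. By the rule of size 3 of 14 spliced rows (21.4%) and 3 of 19 unspliced rows (15.8%) were lower and none was higher, shares near the 19.3% of all tRNA genes. The spliced rows past it were Tyr-GTA-2-1 at -1.24, Arg-TCT-2-1 at -1.10 and Leu-CAA-2-1 at -1.02, of which the last pair stayed under 2-fold with TMM of the pair alone (-0.98 and -0.90) and with whole-RNA totals (-0.91 and -0.83). The unspliced rows past it were Ile-TAT-1-1 at -1.40, Arg-TCT-2-1 at -1.21 and Tyr-GTA-1-5 at -1.05. D389N EVs, with the inactive transgene, were also below Vector EVs for all 14 spliced rows, with a median log2 ratio of -0.54. By the rule of size 4 of these 14 were lower. In the same comparison 28 of 171 tRNA genes and 12.4% of all measured RNAs were lower. Unspliced rows were below Vector in D389N EVs for 14 of 22, with a median of -0.39.

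The share of a family that was unspliced needs no scaling between libraries. For Ile-TAT it was 69.6% in Dis3l2r EVs (interval 68.9% to 70.3%), 78.7% in D389N EVs, 83.2% in Vector EVs (82.9% to 83.6%), 80.9% in shDis3l2 EVs and 58.4% in shNS EVs. Dis3l2r thus lay between shNS and the 3 other libraries for this family. Its unspliced form had 715 scaled CPM in Dis3l2r EVs against 1517 in Vector EVs, while its spliced form had 312 in Dis3l2r EVs and 306 in Vector EVs (log2 ratio 0.03, interval -0.02 to 0.08).

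In the other 3 families the unspliced share was not lower in Dis3l2r EVs than in Vector EVs. For Leu-CAA it was 14.4% in Dis3l2r EVs, 16.5% in D389N EVs, 11.2% in Vector EVs, 9.49% in shDis3l2 EVs and 8.24% in shNS EVs. For Tyr-GTA it was 45.6% in Dis3l2r EVs, 62.9% in D389N EVs, 42.8% in Vector EVs, 34.4% in shDis3l2 EVs and 24.6% in shNS EVs. For Arg-TCT it was 6.10% in Dis3l2r EVs, 6.01% in D389N EVs, 5.59% in Vector EVs and 6.34% in shDis3l2 EVs, all above the 2.63% of shNS EVs. The spliced forms of these families were lower by similar amounts, with summed log2 ratios of -0.81 for Arg-TCT, -0.86 for Leu-CAA and -0.85 for Tyr-GTA. In D389N over Vector EVs the same forms were at -0.63, -0.27 and -1.12. Dis3l2r EVs held 2017, 3720 and 243 scaled CPM of them, and shNS EVs 4322, 5736 and 666.

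**Figure D3:**
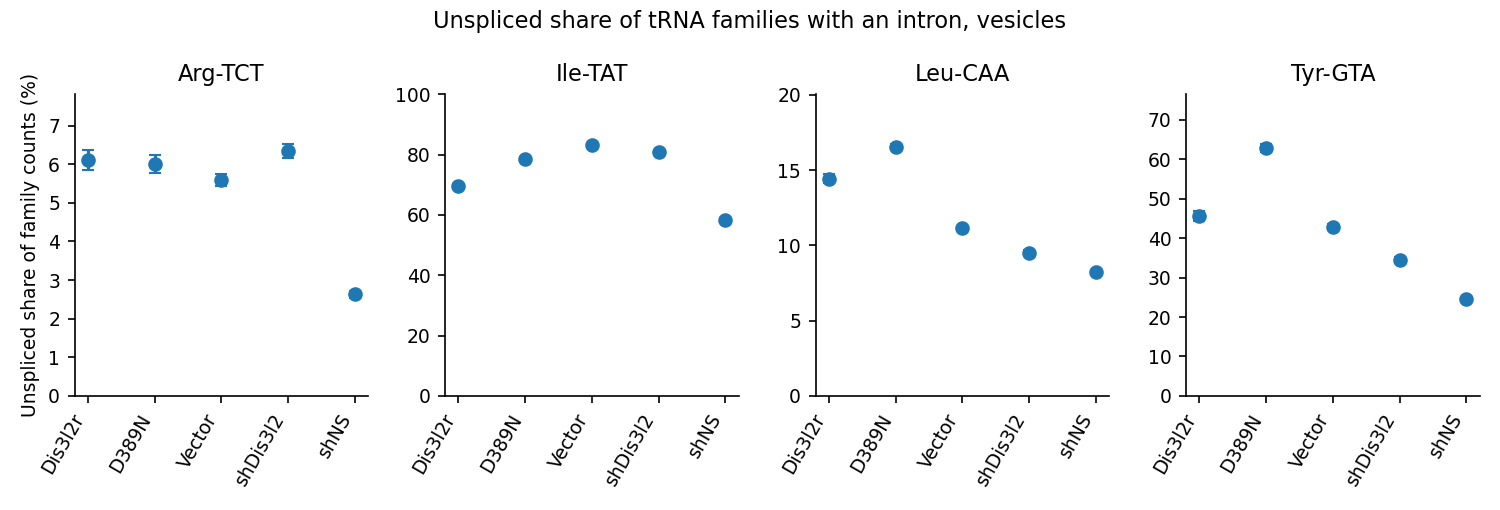
Unspliced counts as a percentage of unspliced and spliced counts (vertical axis, percent, each panel from 0) for 4 intron-containing tRNA families in the 5 EV libraries. Bars are exact binomial 95% intervals, often smaller than the point, and only in the Ile-TAT panel is the Dis3l2r point, at 69.6%, below the Vector point, at 83.2%.

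4.5S RNA, a small noncoding RNA of rodents, ranked second in counts over the pair. It had 44954 scaled CPM in Dis3l2r EVs, 100707 in D389N EVs, 63366 in Vector EVs, 66150 in shDis3l2 EVs and 44302 in shNS EVs. The log2 ratio of Dis3l2r over Vector was -0.50 (interval -0.50 to -0.49), under the rule of size, and Dis3l2r and shNS EVs differed by a log2 ratio of 0.02. As a share of whole-RNA counts 4.5S RNA made up 5.06% in the Dis3l2r library and 6.26% in the Vector library.

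The SINE rows, which stand for repeats such as B1, derived from 7SL RNA, and B2, derived from a tRNA, showed no common direction. Of 9 rows with at least 20 counts, 6 lay above 0 and 3 below, with a median log2 ratio of 0.23, and the summed level was 2050 scaled CPM in Dis3l2r EVs and 2067 in Vector EVs. By the rule of size 2 of 8 measured rows (25%) were higher, near the 23.4% of all whole RNAs. SINE_B1_Mm had 78 counts in the Dis3l2r library and 25 in the Vector library (log2 ratio 2.36, interval 1.69 to 3.07). It had 5.16 scaled CPM in Dis3l2r EVs, 3.07 in D389N EVs, 1.01 in Vector EVs, 3.17 in shDis3l2 EVs and 3.13 in shNS EVs, so Dis3l2r was the highest and Vector the lowest. SINE_B1_Mur4 was at 1.03, with 67 counts in Dis3l2r EVs and 54 in Vector EVs. Of these 8 measured rows, 5 repeated the counts of an Ensembl transcript row in every library and are not separate measurements. SINE_B1_Mm and SINE_B1_Mur4 were both among them.

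Transcripts were higher in 239 and lower in 84 of the 323 rows with at least 20 counts. By the rule of size 89 of 204 measured transcripts (43.6%) were higher and 4 (1.96%) lower, against 23.4% and 9.92% of all measured RNAs. The higher ones were mostly RNAs with few counts. At 100 or more but fewer than 1000 counts over both libraries, 72 of 134 transcripts were higher, and the median log2 ratio was 1.11. From 1000 counts upward, 17 of 70 were higher, a share near the 23.4% of all measured RNAs, and the median was 0.33. Among tRNA genes the median was -0.49 in both of these ranges, over 22 and 144 rows.

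The most abundant transcript of the pair, ENSMUST00000083988, was also among the higher ones. It had 73721 scaled CPM in Dis3l2r EVs, 40269 in D389N EVs, 21106 in Vector EVs, 33955 in shDis3l2 EVs and 49437 in shNS EVs (Dis3l2r over Vector 1.80, interval 1.80 to 1.81). Dis3l2r was thus the highest and Vector the lowest of the 5. This single row held 8.30% of whole-RNA counts in the Dis3l2r library and 2.08% in the Vector library. ENSMUST00000157629, the higher transcript with the next most counts, had 242 scaled CPM in Dis3l2r EVs and 74.96 in Vector EVs (log2 ratio 1.69). Its log2 ratio in Dis3l2r EVs was 0.39 over shDis3l2 EVs, 0.43 over shNS EVs and 2.35 over D389N EVs. Lower transcripts with the most counts were ENSMUST00000179419, with 331 scaled CPM in Dis3l2r EVs and 1099 in Vector EVs (log2 ratio -1.73), and ENSMUST00000178620, with 54.99 in Dis3l2r EVs and 111 in Vector EVs (-1.02). Another 2 transcripts were at 0 in the Vector library. They had 164 and 105 counts in the Dis3l2r library. With the Vector counts set to a floor of 3, they were 89.8-fold and 57.5-fold higher.

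Among the 10 whole RNAs with the most counts, ENSMUST00000083988 was past the rule of size and the other 9 were not. The first of them, tRNA-Gly-TCC-1-1, carries glycine and was at -0.42. The lysine tRNA Lys-CTT-3-1 was at -0.77 and the initiator tRNA iMet-CAT-1-1 at -0.23. The arginine tRNA Arg-CCG-3-1 at 0.13 and the glutamate tRNA Glu-CTC-1-1 at 0.17 were slightly higher.

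**Figure D4:**
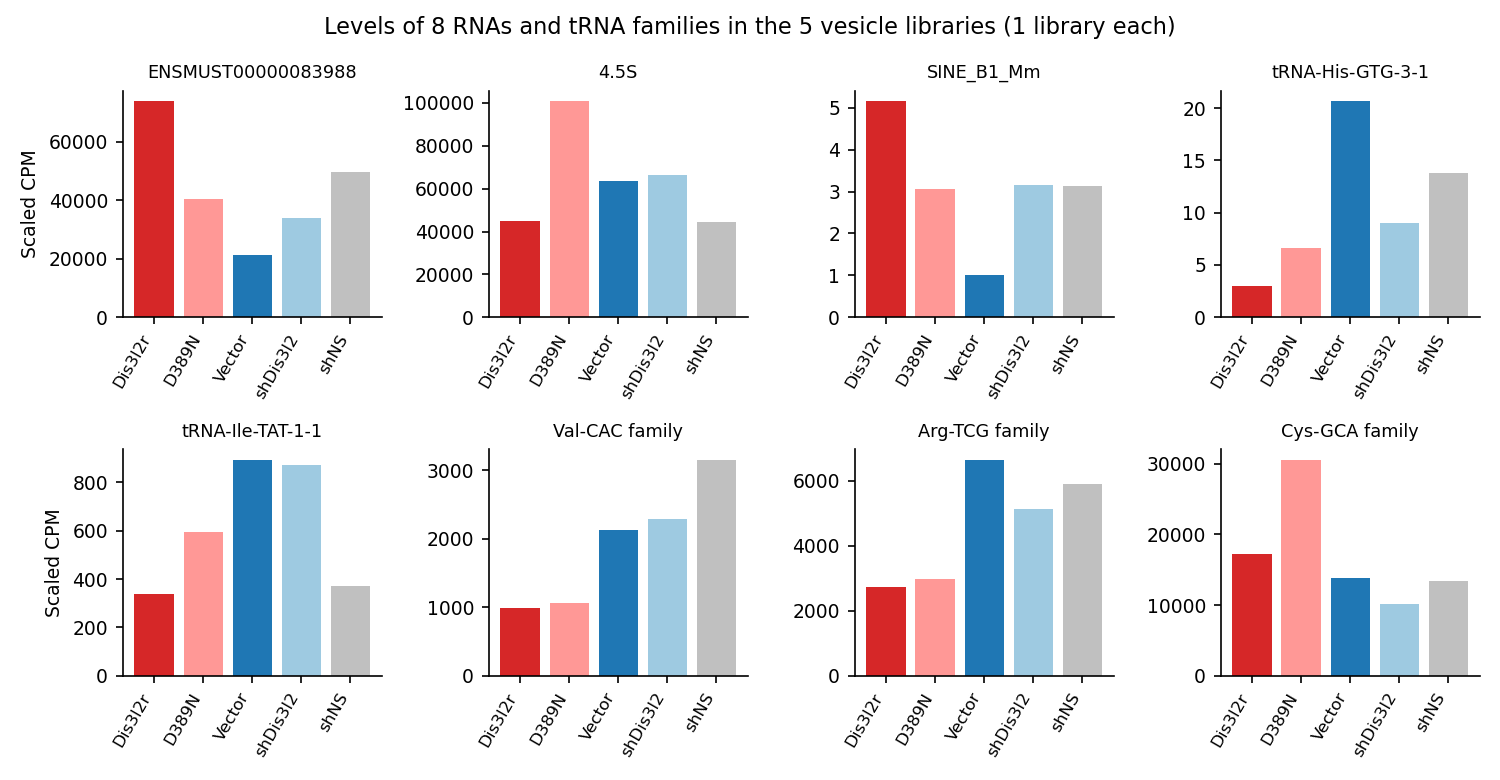
Scaled CPM (vertical axis, from 0 in each panel) in the 5 EV libraries, 1 library per bar and no error bars, for 5 RNAs and 3 tRNA families described in the text. Dis3l2r is highest and Vector lowest for ENSMUST00000083988 and SINE_B1_Mm, while Dis3l2r and D389N are the lowest bars of the Val-CAC and Arg-TCG families.

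The 3 other EV libraries gave a range against which each side of the pair could be placed. Of the 92 higher RNAs, Dis3l2r alone lay outside that range for 16, Vector alone for 23, both for 45 and neither for 8. Vector was the lowest of the 5 libraries for 67 of the 92 and Dis3l2r the highest for 61. Of the 39 lower RNAs, Vector was the highest for 30 and Dis3l2r the lowest for 26. The median absolute log2 ratio over measured RNAs was 0.70 for Dis3l2r over Vector, 0.58 for D389N over Vector and 0.57 for Vector over shDis3l2. In these comparisons, which share the Vector library, 33.3%, 23.2% and 23.9% of measured RNAs passed the rule of size. In Vector over shDis3l2 EVs, neither with a Dis3l2 transgene, the median log2 ratio was 0.36 over tRNA genes and -0.62 over transcripts. By the rule of size 27 of 170 tRNA genes were higher and 2 lower, against 8.91% and 15% of all measured RNAs. Of 202 transcripts, 8 were higher and 57 lower. Over measured RNAs, Dis3l2r over shNS EVs had medians of -0.03 for tRNA genes and 0.29 for transcripts. The same medians for Vector over shNS EVs were 0.39 and -0.57.

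The RNAs past the rule of size in the pair were chosen by the difference between Dis3l2r and Vector, which by itself places both libraries toward the ends. Dis3l2r EVs were also set against shDis3l2 EVs, a comparison added after the data were seen that shares the Dis3l2r library with the main one. Here 35 RNAs (8.91%) were higher and 30 (7.63%) were lower of 393 measured. The median log2 ratio of transcripts was 0.09 in place of 0.82, and 23 of 208 measured transcripts were higher in place of 89 of 204. For tRNA genes the median was -0.09 in place of -0.52, with 12 higher and 18 lower of 163. For spliced tRNAs the median was -0.75 against shDis3l2 and -0.73 against Vector, and for unspliced rows of the same families -0.57 and -0.76. For 4.5S RNA the log2 ratio was -0.56 against shDis3l2 and -0.50 against Vector.

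The families Ser-GGA, Val-CAC and Ile-TAT were below both Vector and shDis3l2 by at least 2-fold, at -1.77, -1.22 and -1.19 against shDis3l2. Against shNS they were at -1.46, -1.68 and -0.08, so that Ile-TAT was near its shNS level and Val-CAC was not.

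Knockdown of Dis3l2 alone, shDis3l2 over shNS EVs, shares no library with the pair. Among 84 RNAs higher in Dis3l2r than in Vector EVs and measured in both comparisons, 60 (71.4%) were below 0 in shDis3l2 over shNS, against 46.0% of all 376 RNAs measured in both. Among 37 lower RNAs, 22 (59.5%) were above 0 in it, against 54.0% of all. Within transcripts, 59 of the 82 higher ones (72.0%) were below 0, against 42.5% of all 193. Within tRNA genes, 16 of the 30 lower ones (53.3%) were above 0, against 49.7% of all 161. Over the 193 transcripts Pearson's r between the log2 ratios was -0.46, and over the 161 tRNA genes it was -0.27. RNAs of a library share its depth and scaling and are not independent. Of the 19 measured unspliced tRNA rows, 18 were above 0 in shDis3l2 over shNS.

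Intron pieces were higher in Dis3l2r EVs across much of the measured set. Of 10745 intron pieces with at least 100 counts over the pair, 5520 (51.4%) were higher by the rule of size and 481 (4.48%) lower, with a median log2 ratio of 1.05. Dis3l2r was the highest of the 5 EV libraries for 4914 of the 5520, and Vector was the lowest for 2954. These pieces were chosen by their counts and difference in the pair, which by itself places both libraries toward the ends. In D389N over Vector EVs, 3034 of 9430 measured intron pieces (32.2%) were higher and 736 (7.8%) lower. Reads reached 95900 intron pieces in the Dis3l2r library, 54653 in D389N, 67757 in Vector, 68526 in shDis3l2 and 84721 in shNS, although Dis3l2r was the shallowest. The 10 largest pieces of each library held 39.3% of intron counts in Dis3l2r and 53.6% in Vector.

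The excess lay in thinly covered introns. Pieces were binned by their mean count in D389N, shDis3l2 and shNS EVs, libraries outside the pair. Introns with a mean of 10 to 30 counts had a median log2 ratio of 1.68, those with 30 to 100 counts 1.32, those with 100 to 300 counts 1.02 and those with 300 to 1000 counts -0.03. Introns in the lowest of these bins summed to 26839 scaled CPM in Dis3l2r EVs, 21026 in D389N EVs, 10610 in Vector EVs, 14813 in shDis3l2 EVs and 17731 in shNS EVs. Introns with a mean of at least 10000 counts, 45 pieces, had a median of -0.09. The piece with the most counts differed from tRNA-iMet-CAT-1-1 by at most 0.769% in any EV library, and its log2 ratio was -0.24. Whole RNAs had medians of 0.47 at 10 to 30 counts, 0.87 at 30 to 100 counts and -0.39 at 10000 or more, and these bins mix transcripts and tRNAs. The pair also differs in depth, and the part of depth in these values was not tested.

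Exon pieces were fewer. Of 413 with at least 100 counts, 105 (25.4%) were higher and 29 (7.02%) lower, with a median log2 ratio of 0.39. In contrast to introns their ratio was larger at high coverage, with a median of 0.75 over 45 pieces at 300 to 1000 counts, although only 8 pieces had 1000 to 10000 counts (1.15) and 2 had more. The exon piece with the most counts had 1376 scaled CPM in Dis3l2r EVs, 732 in D389N EVs, 529 in Vector EVs, 653 in shDis3l2 EVs and 1076 in shNS EVs (log2 ratio 1.38). The next had 1299 in Dis3l2r EVs and 402 in Vector EVs (1.69), and the third 625 in Dis3l2r EVs and 299.8 in Vector EVs (1.06). The largest increase, 5.28, belonged to a piece with 144 scaled CPM in Dis3l2r EVs and 3.70 in Vector EVs. It had 242 in D389N EVs, 155 in shDis3l2 EVs and 79.1 in shNS EVs, so Vector stood apart there and Dis3l2r did not.

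Of 1446 UTR pieces with at least 100 counts, 293 (20.3%) were higher and 126 (8.71%) lower, with a median log2 ratio of 0.18. Part of them repeat transcripts of the whole-RNA rows, and the largest of these pieces, at 1.81, follows ENSMUST00000083988. Over the 1265 UTR pieces of other transcripts, 219 were higher, 121 lower and the median was 0.12. The medians of exon and UTR pieces fell below 0 when each set was scaled by its own totals (-0.38 and -0.10) or its own TMM (-0.03 and -0.22). The intron median was 0.88 by the intron totals and 0.00 by the introns' own TMM, which centres the set itself. The difference between thinly and densely covered introns does not depend on the scaling, because a scaling moves all pieces alike.

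**Figure D5:**
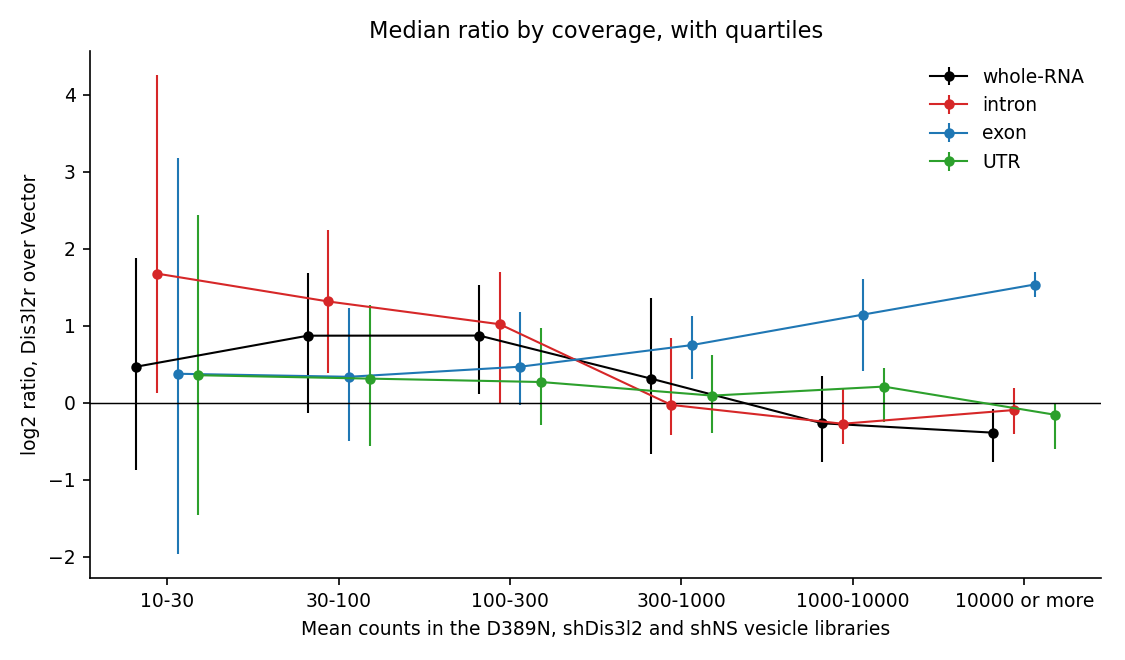
Median log2 ratio of Dis3l2r over Vector EVs (vertical axis, bars from the lower to the upper quartile) by the mean count in the D389N, shDis3l2 and shNS EV libraries (horizontal axis) for whole RNAs and for intron, exon and UTR pieces, scaled by TMM of whole RNAs. The intron median is 1.68 in the lowest bin and -0.09 in the highest, while the exon points climb on few pieces.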

How the data were processed

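The values the authors deposited are estimated counts of each row in each library, left unscaled. The submitters' processing notes name Salmon, Novoalign, UMI-tools and cutadapt, and the builds mm10 and GRCm38. The sources used here give no versions, no order of steps and no word on whether the 12 nt random adapter served to remove duplicates. Counts were rounded to whole numbers. The 5 EV libraries were scaled by TMM on whole-RNA rows (edgeR 4.0.16, R 4.3.3), with other scalings, DESeq2 1.42.0 size factors among them, as alternatives. Ratios have exact conditional binomial intervals and shares exact Clopper-Pearson intervals (scipy 1.17.1). The scripts were tested on simulated data. List medians use members with at least 20 counts. Of 3639 transcript IDs, 0 were matched to a gene name. RNAs were named by size of ratio among those past the rule of size, by most counts and by membership in the intron-containing families. The 2 transcript IDs printed each way have the most counts past the rule and were chosen after their values were seen. The comparison and lists were chosen with earlier results of these data known. Whole-cell libraries were not used here.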

Additional observations from a re-analysis of the deposited data

How the results depend on the processing

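Each group has 1 library, so no replicate could be left out. No paired analysis was possible because no group has a second library. Settings other than the reference library were planned with the comparison, and a count moved when it changed by over 1.5 times, a median when it changed by over 1.5-fold and a share when it changed by over 0.1 percentage points; the cause of a change was not tested. The 92 higher RNAs became 27 under exon totals, 149, 31 and 247 with minima of 20, 500 and 1 counts, 42 at 3-fold and 35 against shDis3l2 EVs. The 39 lower RNAs became 21 under whole-RNA totals, 16 without the most abundant transcript, 16 under tRNA totals, 167 under exon totals, 62 under intron totals, 81 under UTR totals, 69 and 94 with minima of 20 and 1 counts, 104 at 1.5-fold and 7 at 3-fold. Under exon totals, which move every log2 ratio by -0.77, the medians were -0.72 for all RNAs, -1.29 for tRNAs, -1.499 for spliced tRNAs, -1.53 for their unspliced rows, -1.26 for 4.5S RNA and 0.047 for transcripts. The SINE median reversed there, to -0.54, and with a minimum of 500 counts, to -0.011. The transcript median was 0.092 against shDis3l2 EVs. The 6 lower tRNA families became 2 under whole-RNA totals, 2 without the most abundant transcript, 11 with DESeq2 size factors, 34 under exon totals and 3 against shDis3l2 EVs, where 1 family was higher.

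Exon pieces, 105 higher and 29 lower, became 30 and 94 under exon totals, 59 and 56 under exon TMM, 1692 and 1265 with a minimum of 20 counts, 22 and 1 with 500, 221 and 63 summed by transcript, and 47 and 72 against shDis3l2 EVs. Their median reversed to -0.38, -0.033 and -0.094 under exon totals, exon TMM and shDis3l2 EVs. Intron pieces, 5520 higher and 481 lower, became 2041 and 2716 under intron TMM (median 0.0027), 22372 and 3505 with a minimum of 20 counts and 456 and 70 with 500, and the lower ones 238 summed by transcript. UTR pieces, 293 higher and 126 lower, became 181 and 254 under UTR TMM (median -0.22), 3052 and 2024 with a minimum of 20 counts and 33 and 8 with 500; under UTR totals 211 were lower and the median was -0.10. The share difference, Dis3l2r minus Vector in percentage points, was -6.71 for named tRNAs, -8.93 over all rows and -1.99 without the most abundant transcript. For transcripts it was 7.88, 3.11 and 2.82, and for 4.5S RNA -1.19, -1.08 and -0.87. Against shDis3l2 EVs, ENSMUST00000178620 reversed, to 0.16, as did 4 lower tRNA genes (Gln-CTG-1-1 0.22, Ser-GCT-5-1 0.21, Thr-AGT-6-1 0.21 and Thr-CGT-3-1 0.043); tRNA-Ile-TAT-2-1, under 2-fold at -0.89, was at 0.93. The intervals cover counting error, not differences between cultures, which 1 library a side cannot show.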
